A study of Mus musculus with 4 samples.

Results

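The 10 genes described here are the visceral endoderm and apolipoprotein genes Afp, Ttr, Apoa1, Apob, Apoc3, Apoe, Rbp4, Cited1, Krt19 and Sox17, listed by name and found by the gene symbol of the array platform. All 10 were on named spots, of 14386 genes in all, and each had 2 neighbouring spots of 1 accession. CGR8 is a mouse embryonic stem cell line, and its embryoid bodies are aggregates in which the cells differentiate. RNA of embryoid bodies from hanging drops was taken at day 3 and at day 10, and each was hybridised on 2-channel arrays with RNA labelled as undifferentiated day 0 material. Each day has 2 arrays, the second labelled a technical replicate. They count as 1 replicate, no test across samples is possible, and every SD below is technical. The labels used here do not state strain, passage or number of cultures.

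Visceral endoderm is the epithelium that surrounds the early mouse embryo and lines the outer surface of the embryoid body. It takes up nutrients from the mother and secretes the same plasma proteins that liver makes later, among them alpha-fetoprotein, transthyretin, retinol binding protein and the apolipoproteins that carry lipid. Hnf4a, Gata and Foxa factors are known to drive this secretory programme, and Afp, Ttr and Apoa1 are often used as its markers in embryoid bodies.

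A value is the log2 ratio of the channels, with the median of each array set to 0 and the spots of a gene averaged. The deposited table and the labels do not say which channel is the numerator, so "positive" and "negative" are the deposited sides and do not say which day was higher. All 4 arrays were taken to run the same way. A gene was called where both arrays of a day lay at or beyond 1 (2-fold) on the same side. In whole embryoid bodies, fewer cells of a type and less RNA per cell cannot be told apart.

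The familiar markers Afp, Ttr and Apoa1 were called at neither day. Apob and Apoc3 were called on the positive side at day 3, and Cited1 and Krt19 on the positive side at day 10, when Apoc3 was on the negative side. At day 3, 2 of the 9 genes measured on both arrays were called, both on the positive side, where 2.80% of 13707 genes were called on either side and 1.77% on the positive. At day 10, 3 of 9 were called, 2 positive and 1 negative, where 3.54% of 13199 genes were called, 2.15% positive and 1.39% negative. The median of the listed genes was 0.23 at day 3 and 0.37 at day 10, where over all genes it was 0.01 and -0.01. The 4 called genes all lay in the dimmest 25% of genes, as did Ttr, Apoe and Sox17, so 7 of the 10 genes were that dim. Counting only readings with whole numbers up to 10000, a choice made after seeing the data, put 5 of the 10 there, the 4 called genes and Sox17. Of 3248 genes in the dimmest 25% at day 3, 91 were called, 70 on the positive side and 21 on the negative. A further 64 lay beyond 2-fold on opposite sides of the arrays. At day 10, 138 of 2997 such genes were called, 106 positive and 32 negative, and 105 lay on opposite sides. Dim genes in general were thus called more often on the positive side, as were the listed genes. The part of this lean, and of the disagreement between arrays, in the calls was not tested.

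**Figure D1:**
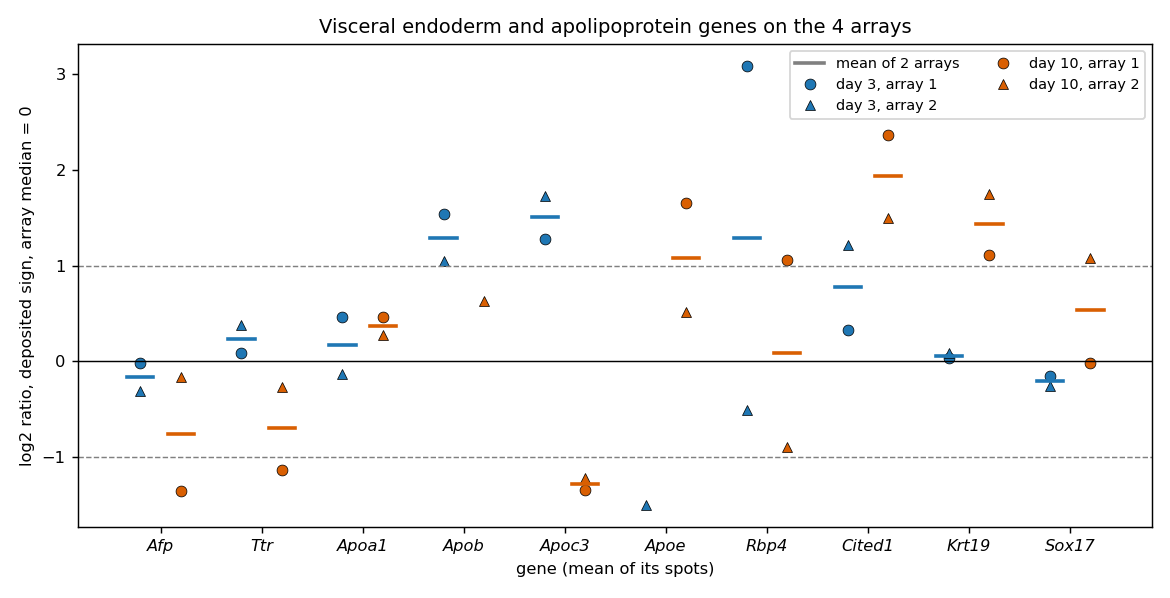
Log2 ratio of each gene (vertical axis, deposited sign, array median at 0) on the day 3 arrays (blue) and the day 10 arrays (orange). Circles are array 1, triangles array 2, short lines the mean where both arrays have a value, and dashed lines the 2-fold limit. Apoc3 is above the upper line on both day 3 arrays and below the lower line on both day 10 arrays, and the Rbp4 arrays lie on opposite sides of 0 at both days.

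The bases before the transcription start are given for some of the listed genes, as far as the RefSeq promoter table of GRCm38.p6 holds them. That table has 11 windows for 6 of the 10 genes, Afp, Apoa1, Apob, Apoe, Cited1 and Rbp4. It has none for Apoc3 and Krt19, the genes called between the days, or for Ttr and Sox17. The 150 bases before the start are shown for Apob and Cited1, as the called genes with a window, and for Afp, as the classical marker that was not called. Cited1 has 3 starts in the table, and the farthest upstream is shown. All run 5′ to 3′ on the strand of the gene. Afp is at chr5:90490564-90490713 on the plus strand, Apob at chr12:7977527-7977676 on the plus strand and Cited1 at chrX:102252182-102252331 on the minus strand. Capitals mark exact matches to the motifs named next.
Afp: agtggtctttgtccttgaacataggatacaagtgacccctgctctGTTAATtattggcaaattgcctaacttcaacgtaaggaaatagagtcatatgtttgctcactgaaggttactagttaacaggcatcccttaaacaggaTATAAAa
Apob: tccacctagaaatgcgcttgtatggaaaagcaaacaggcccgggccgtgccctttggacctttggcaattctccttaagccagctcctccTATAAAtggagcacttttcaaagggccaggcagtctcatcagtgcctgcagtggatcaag
Cited1: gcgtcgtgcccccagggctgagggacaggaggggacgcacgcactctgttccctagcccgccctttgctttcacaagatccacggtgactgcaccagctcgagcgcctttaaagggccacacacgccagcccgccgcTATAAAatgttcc

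The motifs searched on both strands of the 250 bases before each start were TATAAA, the TATA box, then GTTAAT, part of the site of HNF1 factors, then CAAAGT, the core of HNF4 sites. For GATA factors the motif was AGATAA. A second motif for the same factors was TGATAA. Those searched for Sox factors were AACAAT. The TATA letters were in 6 of the 11 windows, which belong to Afp, Apob, Apoe, Cited1 and Rbp4, and in 12.4% of all 32851 windows. GTTAAT was in 2 of the 11, those of Afp and Apoe, and in 6.43% of all windows. CAAAGT was in 1 window of Cited1 and in 12.6% of all. The letters of both GATA motifs and of the Sox motif were in none of the 11, against 9.99%, 7.94% and 9.42% of all windows. Only these exact letters were searched, so the lack of a match does not show that a gene lacks such a site. No matches overlapped in the stretches printed. The called genes Apob and Cited1 and the uncalled Afp thus share the TATA letters, at different distances from the start. The place of a match was not tested, and a match is a description of the sequence alone.

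Apoc3 (Entrez Gene 11814) encodes apolipoprotein C-III, which slows the clearance of triglyceride-rich lipoproteins. It had log2 ratios of 1.28 and 1.72 on the day 3 arrays, a mean of 1.502 ± 0.31 (SD of 2 technical arrays, as throughout). On the day 10 arrays it had -1.35 and -1.22, a mean of -1.29 ± 0.09. The array 1 value averages spots of -0.16 and -2.54, and the array 2 value is the second spot alone. That spot read -2.54 and -1.22, so this SD, and that of the difference below, understate how far the arrays lay apart. The 2 days did not overlap, and each of the 4 pairings of a day 10 with a day 3 array differed by 1 or more on the negative side, with a mean of -2.79 ± 0.32. Such a difference, on either side, was found for 3.54% of 12654 genes. Of the 12654 genes read on all 4 arrays, 2 were called positive at day 3 and negative at day 10, and 1 the other way round.

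The Apoc3 values rest almost wholly on the second of its spots. The first spot had a value on 1 array only, -0.16 on day 10 array 1, where the second read -2.54. Without the first spot the day 10 mean was -1.88, and the difference between days -3.39. Many deposited values are logs of exact ratios of whole numbers, and small numbers mark spots that may have been dim. For the second Apoc3 spot the ratios were 317 to 133 and 575 to 178 at day 3, and 145 to 854 and 183 to 440 at day 10. These are lowest terms, so the channel readings themselves may have been multiples of them. By the mean size of such numbers Apoc3 lay at the 5.37 percentile of genes.

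Apob (Entrez Gene 238055) encodes apolipoprotein B, the structural protein of chylomicrons and very low density lipoproteins. It had 1.54 and 1.05 on the day 3 arrays, a mean of 1.29 ± 0.35, with both arrays on the positive side. At day 10 it had a value on array 2 alone, 0.63, so no call could be made. Its spots agreed in side: 1.82 and 1.26 on day 3 array 1, 1.05 for the second spot on day 3 array 2, and 0.93 and 0.32 on day 10 array 2. The reading on day 3 array 2 was the ratio 93 to 46 and lay just past the limit. When each array's trend with brightness was removed, Apob had 1.19 at day 3 and was no longer called.

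Apoe (Entrez Gene 11816) encodes apolipoprotein E, a ligand of the low density lipoprotein receptor family that macrophages also make. It had no value on day 3 array 1 and -1.50 on day 3 array 2, from 1 spot. On the day 10 arrays it had 1.66 and 0.51, a mean of 1.08 ± 0.81. The day 3 reading and the day 10 readings lay on opposite sides, but with 1 array at day 3 no call or difference was made. On day 10 array 2 its spots read 0.50 and 0.52, whereas on array 1 a single spot gave 1.66.

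Apoa1 (Entrez Gene 11806) encodes apolipoprotein A-I, the main protein of high density lipoproteins. It had 0.46 and -0.14 on the day 3 arrays (mean 0.16 ± 0.42) and 0.46 and 0.28 on the day 10 arrays (mean 0.37 ± 0.13). The days overlapped, and the difference of 0.21 ± 0.44 was within the spread of the arrays. Apoa1 was the brightest of the listed genes, at the 67.9 percentile, and its 8 readings lay between -0.25 and 0.82. It had a value for both spots on every array, as did Sox17 alone among the others.

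**Figure D2:**
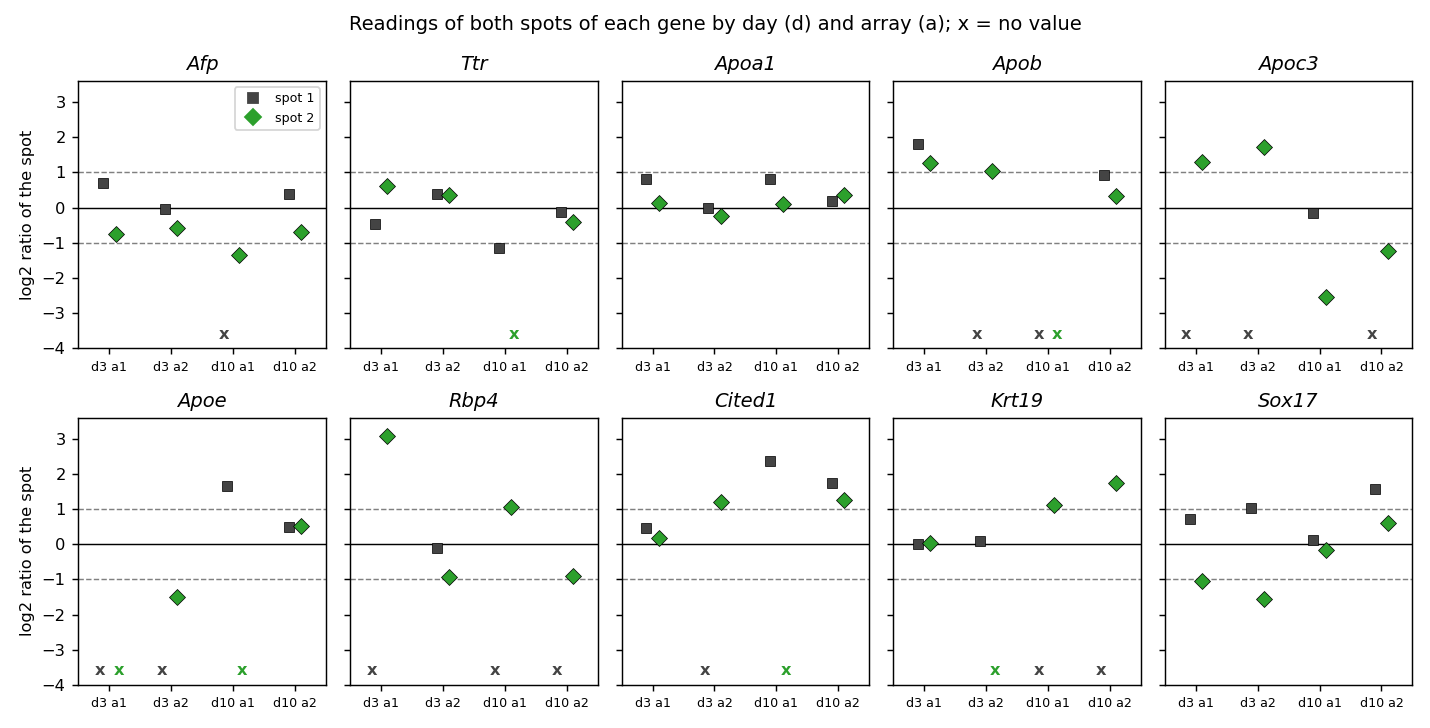
Log2 ratio of both spots of each gene (vertical axis) on the day 3 (d3) and day 10 (d10) arrays 1 and 2 (a1, a2). Squares are spot 1, diamonds spot 2, crosses readings with no value, and dashed lines the 2-fold limit. The Sox17 spots lie on opposite sides of 0 on both day 3 arrays, and 20 of the 80 readings are missing.

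Of the secreted carriers, Afp (Entrez Gene 11576) encodes alpha-fetoprotein, the most familiar product of yolk sac endoderm. It had -0.02 and -0.31 on the day 3 arrays (mean -0.17 ± 0.20) and -1.36 and -0.16 on the day 10 arrays (mean -0.76 ± 0.84). One day 10 array was past the limit and the other near 0, so the days overlapped and no call was made. The Afp spots differed: the second was on the negative side on all 4 arrays, from -1.36 to -0.59, and the first read 0.70, -0.03 and 0.38 where it had a value. On day 10 array 1 only the second spot was measured, with the ratio 124 to 321, so the low mean of that array rests on it. With the second spot alone, the day 3 mean was -0.67.

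Ttr (Entrez Gene 22139) encodes transthyretin, which carries thyroid hormone and binds the retinol-loaded form of retinol binding protein. It had 0.08 and 0.37 on the day 3 arrays (mean 0.23 ± 0.21) and -1.14 and -0.27 on the day 10 arrays (mean -0.70 ± 0.62). Both day 3 arrays were positive and both day 10 arrays negative. The difference was -0.93 ± 0.65, and no call was made. Its first spot, the only one with a value on all 4 arrays, read -0.46 and 0.39 at day 3 and gave a day 3 mean of -0.04.

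Rbp4 (Entrez Gene 19662) encodes the plasma retinol binding protein, the partner of transthyretin. Its arrays disagreed at both days, with 3.09 and -0.51 at day 3 (mean 1.29 ± 2.55) and 1.06 and -0.90 at day 10 (mean 0.08 ± 1.39). Array 1 was positive and array 2 negative at each day. The mean of either day lay far from both of its arrays. That 3.09 was 1 spot with the ratio 3563 to 428, and the same spot read -0.93 on the other day 3 array.

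**Figure D3:**
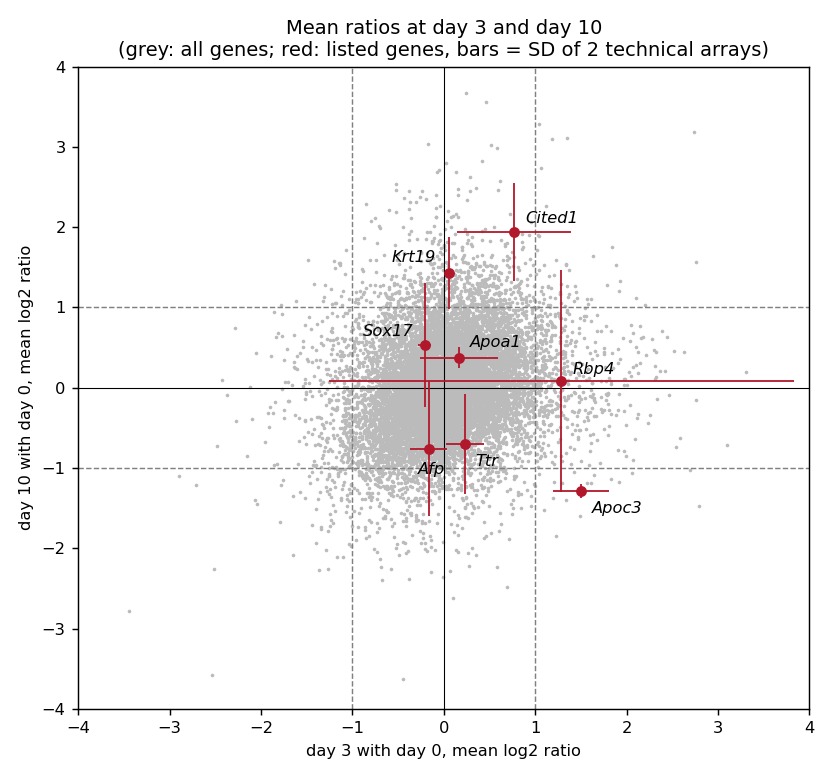
Mean log2 ratio at day 3 (horizontal) and at day 10 (vertical) for all genes with values on the 4 arrays (grey) and the 8 listed genes among them (red, bars are the SD of 2 technical arrays). Dashed lines mark 2-fold, and genes beyond 4 on either axis are outside the frame. Apoc3 lies at the lower right, at 1.502 and -1.29, apart from Krt19 and Cited1 at the top.

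Cited1 (Entrez Gene 12705) encodes a transcriptional co-activator that binds CBP and p300 and is made in visceral endoderm and trophoblast. It had 0.33 and 1.21 on the day 3 arrays (mean 0.77 ± 0.62) and 2.37 and 1.502 on the day 10 arrays (mean 1.93 ± 0.61). Every array was on the positive side, both day 10 arrays were beyond 2-fold, and the days did not overlap. The array values mix spots, as each spot lacked a reading. The first spot read 0.48 at day 3, on array 1 alone, and 2.37 and 1.74 at day 10. The second read 0.18 and 1.21 at day 3, and 1.27 at day 10, on array 2 alone. The difference of 1.16 ± 0.87 was not called, because day 10 array 2 and day 3 array 2 lay closer than the limit. All 6 spot readings were positive, and the smallest whole numbers, 68 to 21, were those of a day 10 reading. The 3 day 10 readings, 2.37, 1.74 and 1.27, were each beyond 2-fold.

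Krt19 (Entrez Gene 16669) encodes a type I keratin of simple epithelia, among them visceral endoderm and trophoblast. It had 0.03 and 0.08 on the day 3 arrays (mean 0.06 ± 0.04) and 1.11 and 1.74 on the day 10 arrays (mean 1.43 ± 0.44). The day 10 arrays lay above the day 3 arrays, and all 4 differences were called, with a mean of 1.37 ± 0.45. Both day 10 values came from the second spot, as the first had none there. At day 3 the second spot read 0.05 on array 1 and had no value on array 2. The 0.08 of day 3 array 2 was the first spot alone, so differences from that array compare different spots. On day 10 array 1 the ratio of the second spot was 15 to 7. With the arrays scaled to a common spread, Krt19 was called neither at day 10 nor between the days.

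Sox17 (Entrez Gene 20671) encodes a transcription factor needed for endoderm and also found in endothelium. It had -0.16 and -0.26 on the day 3 arrays (mean -0.21 ± 0.07) and -0.02 and 1.08 on the day 10 arrays (mean 0.53 ± 0.78). Its spots lay apart at day 3, where the first read 0.72 and 1.03, and the second -1.03 and -1.55. Of 10825 spot pairs with all 4 day 3 readings, 5.63% lay on opposite sides on both arrays, and 37 of them had gaps as large as the smaller one of Sox17 or larger. At day 10 the spots read 0.13 and -0.16 on array 1, and 1.57 and 0.59 on array 2. Sox17 lay at the 1.56 percentile of brightness. One of its readings was 1 to 3, which may stand for any multiple, and leaving it out put Sox17 at the 5.57 percentile, near Apob, Apoc3 and Krt19.

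The listed genes were missing more often than others: 20 of their 80 readings (25%) had no value, against 12.9% over all named spots, and 8 of the 20 were on day 10 array 1. No source used here states the rule for missing values. Of the 60 readings present, 55 were ratios of whole numbers up to 10000 to within 6e-10 on the log2 scale, against 60.6% over all spots. Where both spots of a listed gene were read on an array, they had opposite signs in 6 of 22 cases, against 32.6% of all spot pairs, and the median gap was 0.58. Over all genes the gap between paired spots was 0.33 to 0.54 in the median by array, and a spot read on both arrays of a day differed by 0.44 at day 3 and 0.57 at day 10. For spots of the listed genes these differences were 0.44 and 0.76.

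**Figure D4:**
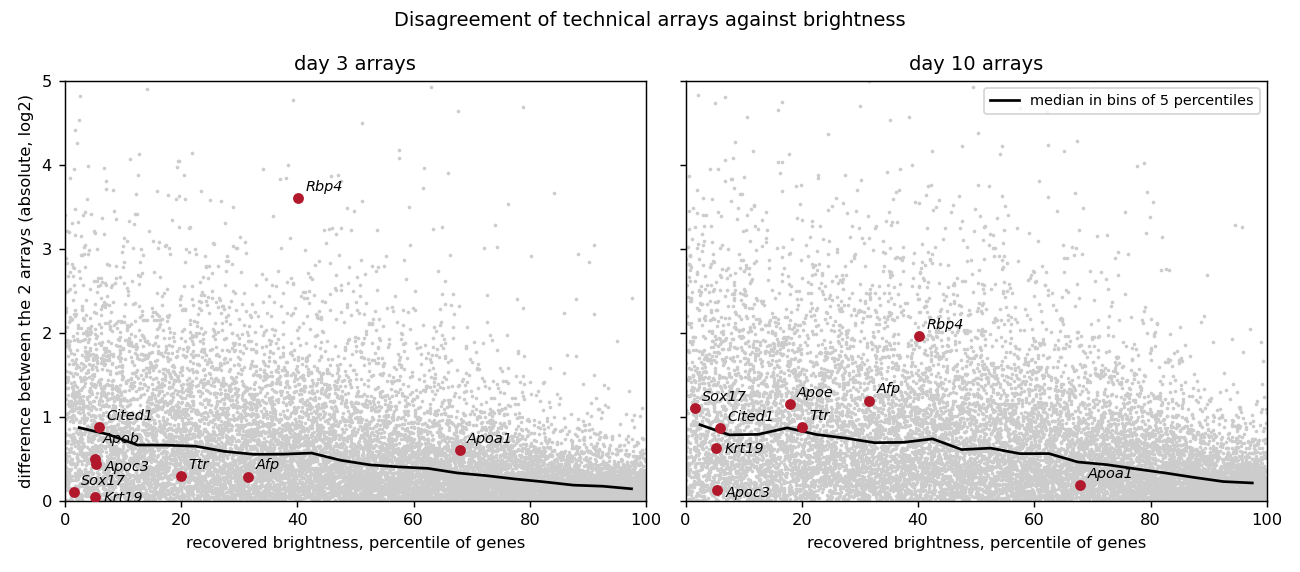
Absolute log2 difference between the technical arrays (vertical) against recovered brightness as a percentile of genes (horizontal) at day 3 (left) and day 10 (right), for all genes (grey) and the listed genes (red). The black line is the median in bins of 5 percentiles, and differences over 5 are outside the frame. Most listed genes lie at the left, where arrays differ more, and Rbp4 lies far above the line at both days.

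Between the days, 8 listed genes could be compared, and Krt19 and Apoc3 were called on opposite sides. Their differences of 1.37 and -2.79 stood at the ends of the range, with a median of -0.19 over the 8 genes. The comparison runs through the day 0 RNA, which both days share if it was the same RNA, and rests on all arrays running the same way. The labels state neither. By side, 1.82% of genes were called positive and 1.72% negative.

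Apoc3 stands in a chromosomal cluster with Apoa1, Apoa4 and Apoa5, and none of these neighbours was called. Apoa4, an apolipoprotein of chylomicrons and high density lipoproteins, was at -0.18 ± 0.22 at day 3 and 0.52 ± 0.34 at day 10. Apoa5, which aids lipolysis of triglycerides, was at -0.66 ± 0.59 and 0.12 ± 1.02. Both day 10 arrays of Apoa1 and Apoa4 were positive where those of Apoc3 were negative. In the cluster of Apoe, Apoc1 had 0.15 ± 0.51 and 0.27 ± 0.16, Apoc2 -0.93 ± 1.61 and -0.40 ± 0.26, and Apoc4 0.01 ± 1.15 and -0.30 ± 0.96. Alb, the neighbour of Afp, was at -0.02 ± 0.02 and -0.22 ± 0.28, with no array beyond 2-fold.

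**Figure D5:**
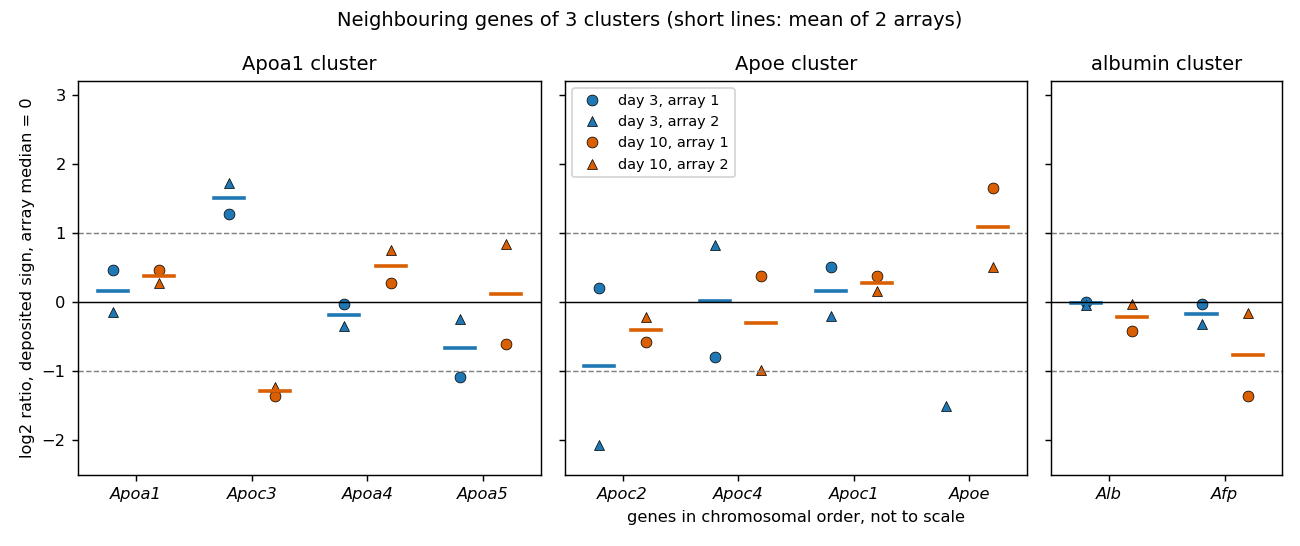
Log2 ratio (vertical axis) of the genes of the Apoa1, Apoe and albumin clusters in chromosomal order, not to scale. Circles and triangles are arrays 1 and 2, blue day 3 and orange day 10, short lines the mean of 2 arrays and dashed lines the 2-fold limit. Apoc3 is the only gene shown with both arrays beyond the limit at either day.

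Genes of 16 further lists were called about as often as all genes. Of those measured, 3.49% of 172 were called at day 3, 2.47% of 162 at day 10 and 3.16% of 158 between the days, beside 2.80%, 3.54% and 3.54% of all genes. At these shares a list of 26 or fewer genes with no call is near the background, and nothing is read from it. Of 16 further apolipoproteins and related genes, Clu, which encodes the secreted chaperone clusterin, was called positive at day 3 at 1.56 ± 0.18 and was at -0.36 ± 0.02 at day 10, a called difference of -1.92. No other apolipoprotein was called, and the list medians were 0.15 at day 3 and -0.01 at day 10, beside 0.01 and -0.01 over all genes. Of the genes for lipoprotein assembly, receptors and remodelling, 18 were measured at day 3 and 16 at day 10, and none was called. Mttp, which loads lipid onto apolipoprotein B, was at -0.05 ± 0.17 and 0.29 ± 0.19, far closer to 0 than Apob was at day 3. Of 26 other plasma proteins of liver and yolk sac, none was called at either day, near the 2.80% and 3.54% of all genes, and their medians were 0.05 and 0.09.

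Of the regulators of endoderm 20 were measured at each day, with medians of -0.14 and 0.04, and a count of 0 called is near the 2.80% and 3.54% of all genes. Gata4, a zinc finger factor of visceral endoderm, was at -0.53 ± 0.02 at day 3 and 0.87 ± 1.21 at day 10, and Gata6 at 0.41 ± 0.37 and 0.22 ± 0.87. Hnf4a, which drives apolipoprotein genes in liver, was at -0.43 ± 0.17 and -0.13 ± 0.32. Foxa2 was at -0.29 ± 0.34 and 0.39 ± 0.07, and Sox7, a close relative of Sox17, at -0.62 ± 1.24 and 0.26 ± 0.86. Genes for uptake at the surface of visceral endoderm, 16 at day 3 and 15 at day 10, had medians of -0.04 and 0.23 and no call. Among them the receptor gene Lrp2 was at 0.42 ± 0.06 and 1.04 ± 0.81, and the endocytic adaptor gene Dab2 at -0.09 ± 0.10 and 0.32 ± 0.49. Cubn, the receptor that takes up apolipoprotein A-I, was at 0.73 ± 0.09 at day 3 and lacked a value on a day 10 array.

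Retinol handling genes, the pathway of Rbp4 and Ttr, had a median of -0.22 at day 3 and 0.37 at day 10 over 13 genes. Crabp2, a cellular retinoic acid binding protein gene, was called negative at both days at -1.22 ± 0.25 and -1.46 ± 0.34. Crabp1, its relative, was at 1.63 ± 0.95 and -0.08 ± 0.02, with a called difference of -1.71. Stra6, the receptor for Rbp4, was at -0.23 ± 0.05 and 0.49 ± 0.08. Among the other simple epithelial keratins none was called, and Krt8, the usual type II partner in such cells, was at 0.05 ± 0.33 and 0.76 ± 0.71. Cited2 and Cited4 were not called, with -0.12 ± 0.51 and -0.28 ± 0.07 at day 3 and -0.23 ± 0.37 and 0.34 ± 0.60 at day 10.

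Several listed genes are also made in other cell types, whose markers were read beside them, and the part of those cells in the values was not tested. Parietal endoderm genes, 13 at day 3 and 10 at day 10, had medians of 0.06 and 0.09 with no call, and the 8 definitive endoderm genes -0.18 and 0.02 with no call. Of the trophoblast genes, where Cited1 and Krt19 are also made, Tfap2c was called at day 3 at 1.45 ± 0.00 and Psg17 at day 10 at 1.19 ± 0.08, with list medians of 0.14 over 8 genes and -0.04 over 9. Surface ectoderm genes had medians of -0.51 and -0.22 over 5 genes, and Krt5, a keratin of stratified epithelia, differed between the days by a called 1.61. Of the endothelial genes, where Sox17 is also made, Tie1 at 1.72 ± 0.36 and Egfl7 at 2.76 ± 0.31 were called at day 3, and Egfl7 at 1.57 ± 0.77 and Cldn5 at 1.37 ± 0.32 at day 10. Tie1 and Cldn5 differed between the days by a called -1.98 and 1.55. The list medians were 0.11 over 9 genes and 0.10 over 8. Macrophage genes, where Apoe is also made, had medians of 0.05 over 6 genes and -0.37 over 5 with no call. Genes of undifferentiated stem cells lay on the negative side in every mean, with Dppa5a called at day 3. The means ran from -2.71 to -0.38 over 7 genes at day 3 and from -1.39 to -0.22 over 6 at day 10. The day 10 arrays disagreed in side for Nanog (0.15 and -0.59), Esrrb (0.29 and -0.80) and Dppa5a (0.41 and -2.85). Pou5f1, Zfp42 and Klf4 were negative on both. As only ratios were used, no level of any marker can be given for a single day.

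Of the genes with values on the 4 arrays, 11146 were compared after leaving out clone, predicted and pseudogene symbols such as those ending in Rik. Those nearest to each called gene over the arrays were found by Euclidean distance, which covers 2 RNA pairs alone. Nearest to Apoc3 were Emc9 at 0.71, Rpl11 at 0.85 and Rpl27 at 0.87, with brightness percentiles of 78.4 to 87.7. The latter 2 encode ribosomal proteins, which have many near-identical copies, and the part of such copies in the spot values was not tested. Adam12 was nearest to Cited1, at 0.32, followed by Kdm5a at 0.57 and Mtx2 at 0.59. Serpina5 was nearest to Krt19, at 0.28, then Dph7 at 0.31 and Nkap at 0.33. No listed gene was among these neighbours.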

How the data were processed

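The deposited table holds 1 value per spot and array. It was taken as the log2 ratio of the channels, since in base 2 a whole-number ratio with denominator of at most 100 was found for 5.86% of 5000 values, against 0.680% in base e or 10. No source used here states what the authors did before depositing these log2 values (scanner, background, dyes, numerator, scaling). Each array's own median, between -0.04 and -0.02 without 480 control spots, was subtracted. Spots were named through the platform's annotation and the RefSeq gene table of GRCm38.p6: 32544 had 1 symbol, 588 several, and 12996 no row. Spots of a gene were averaged.

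The arrays carried 37471 to 41386 values each, and their number limits the precision. No significance test was run, since each day is 1 RNA pair. Genes of the dimmest 25% had correlations between technical arrays of 0.03 at day 3 and 0.04 at day 10, and the brightest 25% 0.76 and 0.59. Arrays of different days correlated at 0.12 to 0.16. The labels do not state that both days used the same day 0 RNA. That all arrays ran the same way was assumed and was not tested. Recovered brightness was the mean log2 size of the smallest 2 whole numbers, of any size, whose log2 ratio lay within 6e-10 of a value. Values with no such ratio up to 10000 thus entered with larger numbers.

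The genes and the 16 further lists were chosen with earlier results of these data known. Named were the 10 genes, every called gene of a list, 18 further list genes where measured, and the 3 nearest genes of each called gene with values on the 4 arrays. Apoc4, Cited2 and Cited4 were added after their values were seen. Nanog, Esrrb, Pou5f1, Zfp42 and Klf4 were also outside this choice, and were named by the sides of their day 10 arrays. The alternatives were no centring, a common spread, medians or single spots in place of means, spots with 4 values, a 1.5-fold or 4-fold limit, a call on the mean, removal of the brightness trend in 50 bins and each array left out. The steps were run on simulated data with known answers, with noise drawn from spots of any brightness. That run does not show how reliable calls of dim genes are. Calculations used Python 3.11.15, numpy 2.4.6, pandas 2.3.3 and matplotlib 3.10.9.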

Additional observations from a re-analysis of the deposited data

Results flagged for a closer look

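In 2 of the listed genes both day 3 arrays lay on the positive side and both day 10 arrays on the negative. Apoc3 differed by -2.79 between day 10 and day 3, and Ttr by -0.93. The difference between the days was not tested for either gene. Such a change of sides, of any size, was found in 14.0% of the 12654 genes with values on the 4 arrays. For Apoc3 the first of the spots had no value at day 3, and for Ttr the second had none on day 10 array 1.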

How the results depend on the processing

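Apoc3 kept its calls at day 3, at day 10 and between the days under every alternative in which it was measured, except that the 4-fold limit left it called between the days alone. These alternatives reuse the same second spot, to which the first adds 1 reading. The Apoc3 day 10 mean moved by more than its SD with a common spread (-1.18), without the brightness trend (-1.40) and with the second spot alone (-1.88). With that spot alone the difference between the days also moved, to -3.39. With spots measured on all 4 arrays, 1 gene was called in each comparison, Apoc3, of 6 measured. With the 4-fold limit 0 genes were called at day 3, 0 at day 10 and 1 between the days. Removing the brightness trend left 1 call at day 3, Apoc3. A common spread left 1 call between the days, and the limit on the mean alone gave 4. Leaving out an array replaces a call on both arrays by a call on the other alone, which gave 3 to 4 calls at day 3, 4 to 7 at day 10 and 3 to 5 between the days. The count rose most without day 10 replicate 2, to 7 at day 10 with Afp, Ttr, Apoe and Rbp4 added, and to 5 between the days. Without day 3 replicate 1 there were 4 at day 3, and without day 3 replicate 2 there were 4 between the days. Single array backgrounds were also higher, from 10.0% to 20.4% of genes. Of the called values none changed sign. Apart from arrays left out and the median of 2 spots, which cannot move a mean past the SD of its arrays, 15 of 122 recomputed values moved by more than that SD. No paired analysis was possible because the results come from no test and the labels number no replicates.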
